A study of Homo sapiens with 6 samples.

Results

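The mRNA levels of 8 genes whose proteins set how long cytokine mRNAs last were measured in SU-DHL-2 cells cultured with or without IL-17A: ZC3H12A, RC3H1, RC3H2, ARID5A, ELAVL1, ZFP36, ZFP36L1 and ZFP36L2. They were chosen by name as RNA-binding regulators at the end of the IL-17 pathway. The rule uses no measured value, but the choice was made with earlier results of these data known. They make up 8 of 19740 named genes on the array, and 12 of its 34127 probes. SU-DHL-2 is an established human cell line of diffuse large B-cell lymphoma (DLBCL), and all samples came from this 1 line. In the IL-17A group (n = 3) cells were kept with 200 pg/ml IL-17A for 72 h, and in the control group (n = 3) for the same time without it. Each sample was read on 1 single-colour Agilent array, and 72 h was the only time measured. The labels do not say that the 3 samples of a group were separate cultures, so p-values measure only the spread between these samples.

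Many short-lived mRNAs of cytokines, chemokines and transcription factors carry signals in their 3' ends, either AU-rich elements or small stem-loops. Proteins of the ZFP36 family bind AU-rich elements and bring in the enzymes that shorten the poly(A) tail. Regnase-1, encoded by ZC3H12A, cuts stem-loop mRNAs, and the Roquins, encoded by RC3H1 and RC3H2, bind such stem-loops and start decay. ARID5A and HuR, encoded by ELAVL1, act in the other direction and keep bound mRNAs stable. The IL-17 receptor, through its adaptor Act1, is known to extend the life of target mRNAs, and Regnase-1 is known to restrain IL-17 signaling. The arrays measured how much mRNA was present, not its half-life, and not the amount or phosphorylation of the proteins. In such bulk RNA, fewer cells that hold an mRNA and less of it per cell cannot be told apart.

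No probe of the 8 regulators passed the threshold of adjusted p under 0.05 (limma, Benjamini-Hochberg over all 23943 tested probes). Over all tested probes, 1818 or 7.59% passed it, with 1061 (4.43%) higher and 757 (3.16%) lower with IL-17A. All 12 regulator probes were well above background on all 6 arrays, and all 12 were tested. Their adjusted p ran from 0.0684 to 0.934. At an unadjusted p under 0.05, 3 of the 12 probes (25%) passed, 2 higher and 1 lower, against 31.3% of all tested probes. None changed by at least 1.5-fold with p under 0.05, as 2.18% of all tested probes did. The values of the groups did not overlap for 5 of 12 probes (41.7%), and for 39.0% of all tested probes. The median log2 fold change of the regulator probes was -0.05 and its median size 0.09, beside 0.01 and 0.12 over all tested probes. These counts for the regulators lay near those of the whole array.

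Between these samples the differences of the regulator probes were small as folds, from 0.814 to 1.149. By size, they exceeded from 2.6% (brighter RC3H1 probe) to 83.9% (dimmer ARID5A probe) of all tested probes. The intervals below are each for 1 probe and measure only the spread between these samples. The 95% interval of each of the 12 log2 fold changes (IL-17A over control) lay inside plus or minus 0.585, which is 1.5-fold in either direction. As folds, the lowest bound was 0.693, from the dimmer ARID5A probe, and the highest was 1.255, from the dimmer RC3H2 probe. Over 17 other ways to process the data, 198 of 204 intervals stayed inside 1.5-fold. The 6 that did not all belonged to the dimmer ARID5A probe, with a lowest log2 bound of -0.62. Among them were the fits without IL-17A replicate 1 or 3 and without control replicate 1 or 2. The 204 intervals are not separate checks, since several ways repeat the same estimates and the normexp offset narrows the intervals.

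The scan times in the array headers divided the IL-17A group. All 3 controls and IL-17A replicate 1 had 1 scan time, while a different time was common to the remaining 2 IL-17A arrays. Arrays with the same time were taken as 1 scan session, which is an inference. With the session as a block, the estimate rests on IL-17A replicate 1 against the controls. All 12 intervals again lay inside 1.5-fold, with folds from 0.671 to 1.33, and the adjusted p ran from 0.212 to 0.968 (limma). Only the dimmer RC3H2 probe then had an unadjusted p under 0.05 (limma).

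**Figure D1:**
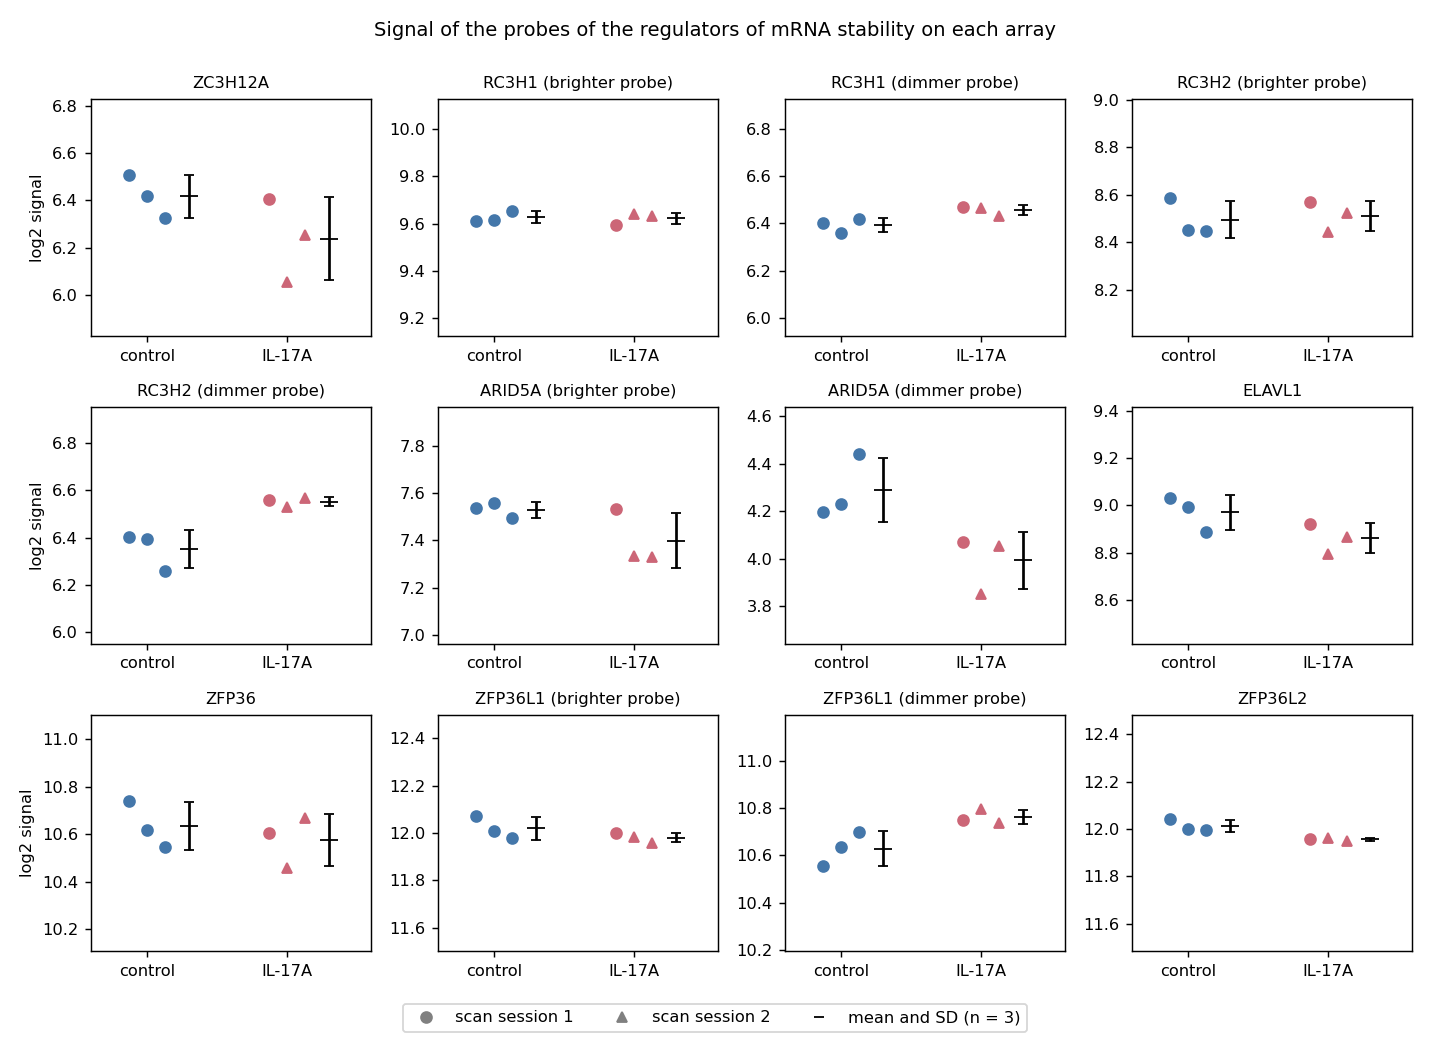
Each panel plots the quantile-normalized log2 signal (y axis, spanning 1 log2 unit in every panel) of 1 probe on the 3 control and 3 IL-17A arrays, with the mean and SD of each group (n = 3) beside the points and the scan session shown by the marker. The groups separated for the dimmer probes of RC3H1, RC3H2, ARID5A and ZFP36L1 and for ZFP36L2, and overlapped for the other 7 probes.

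**Figure D2:**
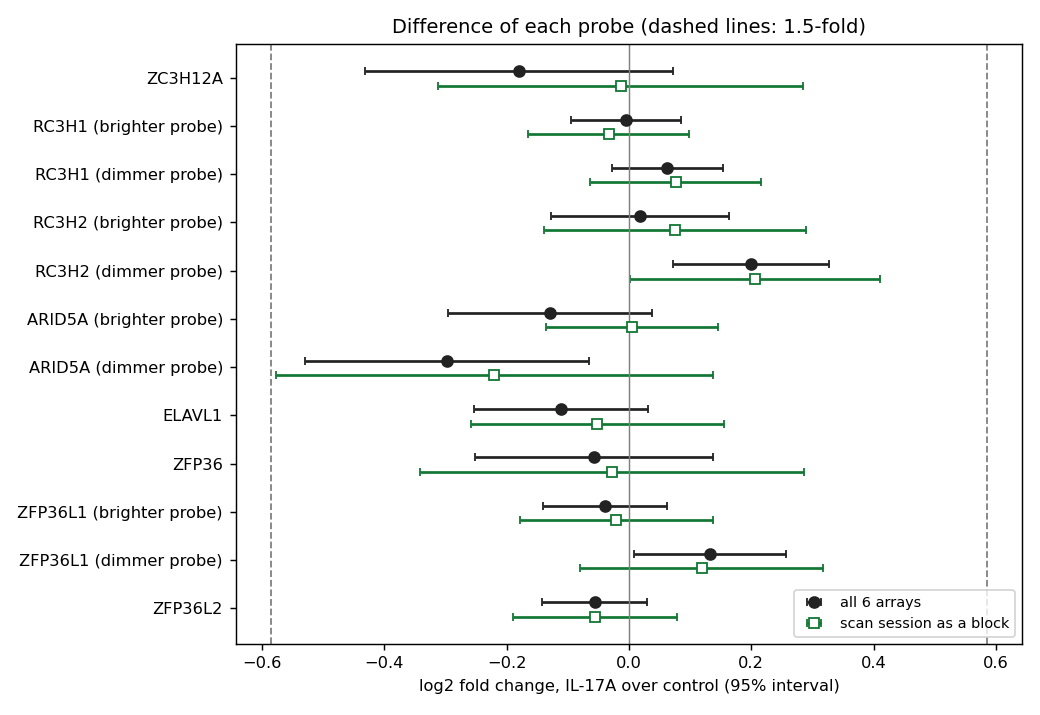
The log2 fold change of each of the 12 probes (IL-17A over control, x axis) is drawn with its 95% interval from the 6 arrays (filled circles) and with the scan session as a block (open squares), and dashed lines mark 1.5-fold. All intervals lie between the dashed lines, and those of ZC3H12A and the brighter ARID5A probe move to about 0 with the block.

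The first group, the proteins that act on stem-loops, comprised ZC3H12A, RC3H1 and RC3H2. The 250 bases before the start of ZC3H12A and of RC3H2 are shown because ZC3H12A encodes the enzyme known to restrain IL-17 signaling and RC3H2 held the regulator probe with the lowest p. They are RefSeq sequences on GRCh38.p14, written 5' to 3' on the strand of the gene. Capitals mark a TATA box (TATAAA) in ZC3H12A, beginning 27 bases before the start, and letters that match the NF-kB consensus in RC3H2, where 2 overlapping matches begin 229 and 228 bases before it.
ZC3H12A, chr1:37474330-37474579, plus strand: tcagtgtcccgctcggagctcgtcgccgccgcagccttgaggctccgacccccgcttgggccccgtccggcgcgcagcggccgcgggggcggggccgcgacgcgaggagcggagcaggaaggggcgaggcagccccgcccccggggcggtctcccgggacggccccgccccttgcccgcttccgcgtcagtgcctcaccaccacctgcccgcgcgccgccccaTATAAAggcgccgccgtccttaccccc
RC3H2, chr9:122905360-122905609, minus strand: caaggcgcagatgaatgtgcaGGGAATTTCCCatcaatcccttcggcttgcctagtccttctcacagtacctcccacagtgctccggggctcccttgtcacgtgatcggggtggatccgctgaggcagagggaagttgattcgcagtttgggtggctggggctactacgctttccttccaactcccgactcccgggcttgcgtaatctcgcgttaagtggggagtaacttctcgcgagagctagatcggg

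Windows were listed for 6 of the 8 genes, with 2 starts each for ARID5A and ZFP36L1, and not for ELAVL1 or ZFP36L2. Both strands of these 8 windows and of all 35116 listed promoters were searched for TATAAA (10.7% of all promoters), the NF-kB consensus (10.0%), the AP-1 letters TGANTCA (6.6%), the STAT letters TTCNNNGAA (6.6%) and the CArG box (1.2%). Besides the matches above, TATAAA lay in the RC3H1 window, 162 bases before the listed start. No other match was found in the 8 windows. The share of G and C was 78.8% in ZC3H12A, 76.4% in ZFP36, 57.6% in RC3H2 and 28.4% in RC3H1, beside a median of 58.0%. It was 71.2% and 74.4% in the 2 windows of ARID5A, and 56.4% and 58.4% in those of ZFP36L1.

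ZC3H12A encodes Regnase-1, the endonuclease, and was measured by probe A_33_P3214720. Its log2 signal was 6.40, 6.05 and 6.26 on the IL-17A arrays 1, 2 and 3, and 6.51, 6.42 and 6.33 on the control arrays. IL-17A replicate 1 lay within the range of the controls, and the other two lay below it. The group means were 6.24 ± 0.18 and 6.42 ± 0.09 (SD, n = 3 each). The log2 fold change was -0.18 (SE 0.10, limma, adjusted p = 0.280), a fold of 0.883 with a 95% interval of 0.742 to 1.05. With the scan session as a block the value was -0.01.

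RC3H1, which encodes Roquin-1, was measured by 2 probes. The brighter probe, A_32_P96807, gave 9.59, 9.64 and 9.63 with IL-17A and 9.61, 9.62 and 9.65 in the controls. These 6 values nearly coincided, and the log2 fold change of -0.01 (SE 0.04, limma, adjusted p = 0.934) was the smallest of the 12 probes. Its 95% interval, 0.936 to 1.06 as a fold, was narrow. The dimmer probe, A_33_P3288774, gave 6.47, 6.46 and 6.43 with IL-17A and 6.40, 6.36 and 6.42 in the controls. All 3 IL-17A values lay above all 3 controls, but the gap was small, at 0.06 on the log2 scale (SE 0.04, limma, adjusted p = 0.294). The estimates of the 2 probes differed in sign.

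RC3H2 encodes Roquin-2, the close relative of Roquin-1. Its brighter probe, A_23_P94636, gave 8.57, 8.44 and 8.52 with IL-17A and 8.59, 8.45 and 8.45 in the controls, and the groups overlapped (log2 fold change 0.02, SE 0.06, limma, adjusted p = 0.864). Its dimmer probe, A_33_P3345504, gave 6.56, 6.53 and 6.57 with IL-17A and 6.40, 6.39 and 6.26 in the controls. Here all 3 IL-17A arrays were higher than all controls, and control replicate 3 was the lowest. The log2 fold change was 0.20 (SE 0.05), a fold of 1.15 with an interval of 1.05 to 1.26. This was the member probe with the lowest p (limma, adjusted p = 0.0684), and it was 0.21 with the scan session as a block. A variance trend in the model gave it an adjusted p of 0.0481 (limma), and the other alternatives left it above 0.05. The 2 probes had the same sign and differed by 0.18 on the log2 scale.

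The second group, the stabilizing proteins, comprised ARID5A and ELAVL1. ARID5A binds stem-loops that Regnase-1 also recognizes and protects the mRNA, with IL6 as its best known target. Its brighter probe, A_23_P143016, gave 7.53, 7.33 and 7.33 with IL-17A and 7.54, 7.56 and 7.49 in the controls. IL-17A replicate 1 lay among the controls and replicates 2 and 3 below them (log2 fold change -0.13, SE 0.07, limma, adjusted p = 0.243). With the scan session as a block this probe was at 0.00.

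The dimmer ARID5A probe, A_33_P3389342, had the largest estimate of the 12 probes. It gave 4.07, 3.85 and 4.06 with IL-17A and 4.2, 4.23 and 4.44 in the controls. All 3 IL-17A values were lower than all controls. The log2 fold change was -0.30 (SE 0.09, limma, adjusted p = 0.10), a fold of 0.814 with an interval of 0.693 to 0.956, and -0.22 with the session as a block. Its signal of 14.4 to 21.7 was a few times the lowest signal that was still well above background on these arrays, 3.62 to 4.32. With normexp background correction, which adds an offset of 50 to each signal, the value was -0.07. Such an added constant shrinks the fold change of a dim probe. This alternative also started from the median spot and background signals rather than the processed signal, and kept outlier spots. The part of each of these steps was not tested. As the mean of both probes ARID5A gave -0.21 (limma, adjusted p = 0.0801), the lowest adjusted p of the 8 genes on that scale.

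ELAVL1 encodes HuR, which binds AU-rich elements and stabilizes the mRNA, and was read by probe A_23_P388681. Its log2 signal was 8.92, 8.79 and 8.87 with IL-17A and 9.03, 9.0 and 8.89 in the controls. IL-17A replicate 1 lay within the range of the controls and the other two below it. The log2 fold change was -0.11 (SE 0.06, limma, adjusted p = 0.243), with an interval of 0.839 to 1.02 as a fold, and -0.05 with the session as a block.

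The third group was the ZFP36 family of zinc finger proteins, which promote the decay of mRNAs with AU-rich elements. ZFP36, also called tristetraprolin (probe A_23_P39237), gave 10.61, 10.46 and 10.67 with IL-17A and 10.74, 10.62 and 10.54 in the controls. The groups overlapped, and the log2 fold change was -0.06 (SE 0.08, limma, adjusted p = 0.648), a fold of 0.961 with an interval of 0.839 to 1.1.

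ZFP36L1 was measured by 2 probes that differed in sign. The brighter probe, A_33_P3417865, gave 12.0, 11.98 and 11.96 with IL-17A and 12.07, 12.01 and 11.98 in the controls, and its log2 fold change was -0.04 (SE 0.04, limma, adjusted p = 0.544). The dimmer probe, A_23_P99540, gave 10.75, 10.80 and 10.74 with IL-17A and 10.55, 10.63 and 10.70 in the controls. Its IL-17A values were all higher than the controls, by 0.13 (SE 0.05, limma, adjusted p = 0.144), a fold of 1.1 with an interval of 1.005 to 1.19. The mean of both probes gave 0.05 (limma, adjusted p = 0.337).

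ZFP36L2 (probe A_23_P101960) gave 11.96, 11.96 and 11.95 with IL-17A and 12.04, 12.0 and 12.0 in the controls. Its groups did not overlap, and the difference was -0.06 (SE 0.03, limma, adjusted p = 0.316). The probe was printed as 10 spots on each array, and none of these spots was marked as an outlier. Before normalization, the SD of the 10 log2 signals on an array was 0.038 to 0.066, and the arrays of the groups overlapped at that stage. The median spot signal was 3908, 4268 and 3896 with IL-17A and 4360, 3845 and 4096 in the controls.

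**Figure D3:**
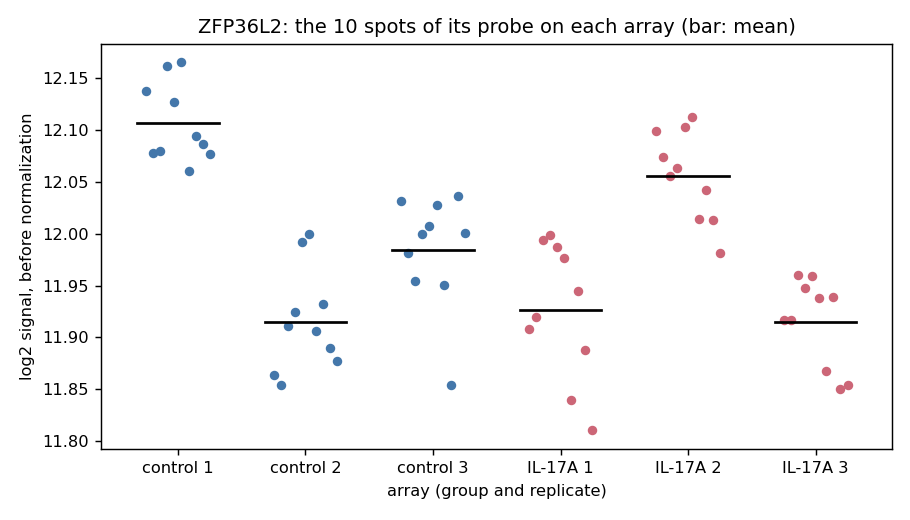
The log2 signal before normalization (y axis) of the 10 spots of the ZFP36L2 probe is plotted for each of the 6 arrays (x axis), with a bar at the mean of the spots. The mean of IL-17A replicate 2 lies above those of control replicates 2 and 3, and the spots of 1 array spread over 0.105 to 0.189 log2 units.

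Of the 4 genes with 2 probes, RC3H2 and ARID5A had estimates of the same sign and RC3H1 and ZFP36L1 of opposite sign. The dimmer probes of RC3H2, ARID5A and ZFP36L1 were the 3 regulator probes with an unadjusted p under 0.05 (limma). No gene reached that level at its brighter probe, and none passed the adjusted threshold at either. Which transcripts each probe measures was not examined.

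**Figure D4:**
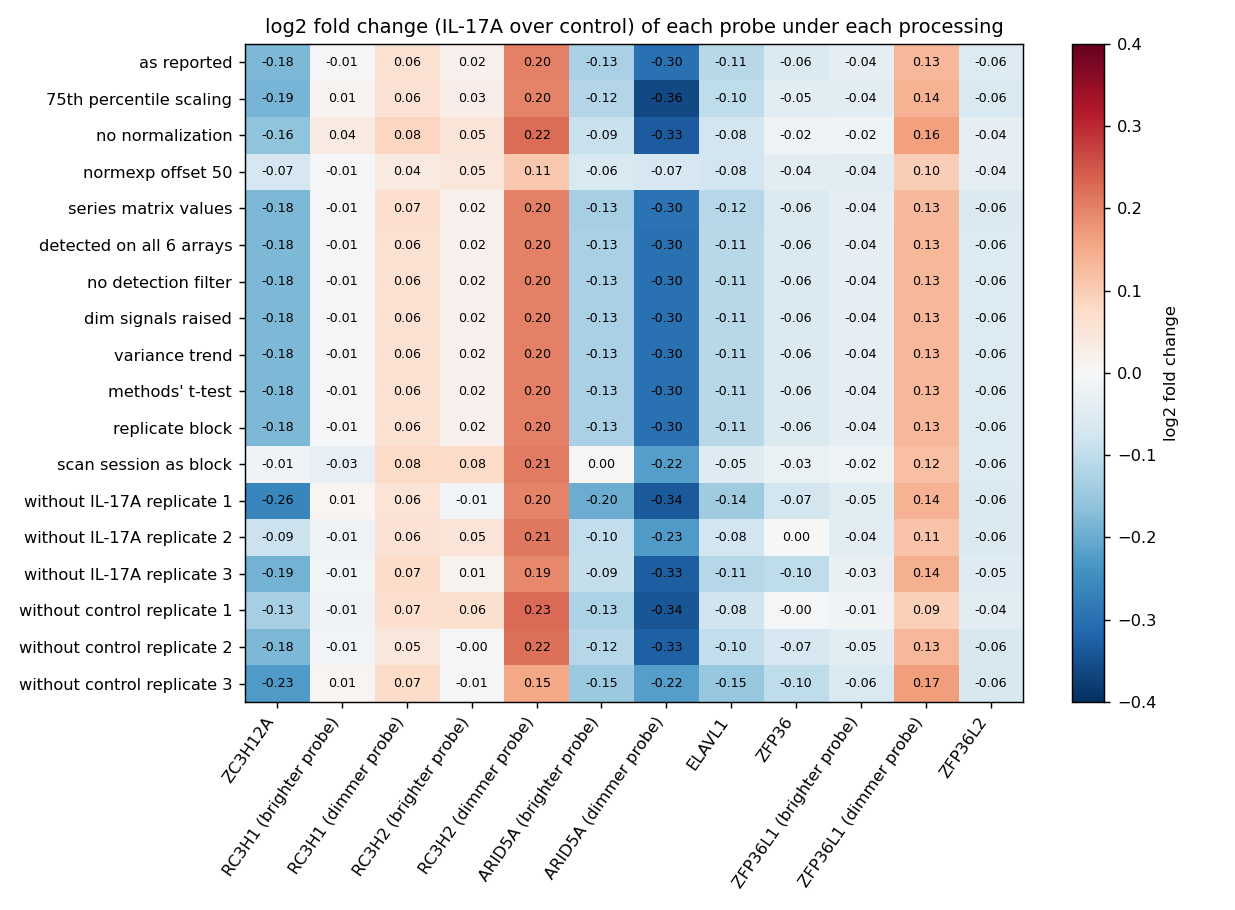
Each cell gives the log2 fold change (IL-17A over control) of 1 probe (columns) as reported or under 1 of 17 other processings (rows), with red for higher and blue for lower values. The values of most probes change little from row to row, and rows that change only the filter, the floor or the test repeat the reported values. ZC3H12A and the brighter ARID5A probe approach 0 with the scan session as a block. The dimmer ARID5A probe is at -0.07 with normexp, which starts from other spot signals and whose added offset of 50 shrinks the fold changes of dim probes.

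The genes around the regulators were examined as 7 lists of pathway members, 170 genes in all, with each gene at its brightest tested probe. Of the 153 genes tested, 11 (7.19%) passed adjusted p under 0.05 (limma), 8 higher and 3 lower, beside 7.84% of the 14746 genes tested on the array. Their median log2 fold change was 0.01, and it was 0.00 over all genes. Most of these calls were lost with 1 array less: 0 of the 153 passed when IL-17A replicate 1, 2 or 3 or control replicate 1 or 2 was left out, and 6 passed without control replicate 3. With the scan session as a block 1 gene passed, CAPRIN1, an RNA-binding protein of stress granules. Its log2 signal was 5.51 in IL-17A replicate 1 and 9.23 to 9.43 on the other 5 arrays, so this value rests on 1 array.

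**Figure D5:**
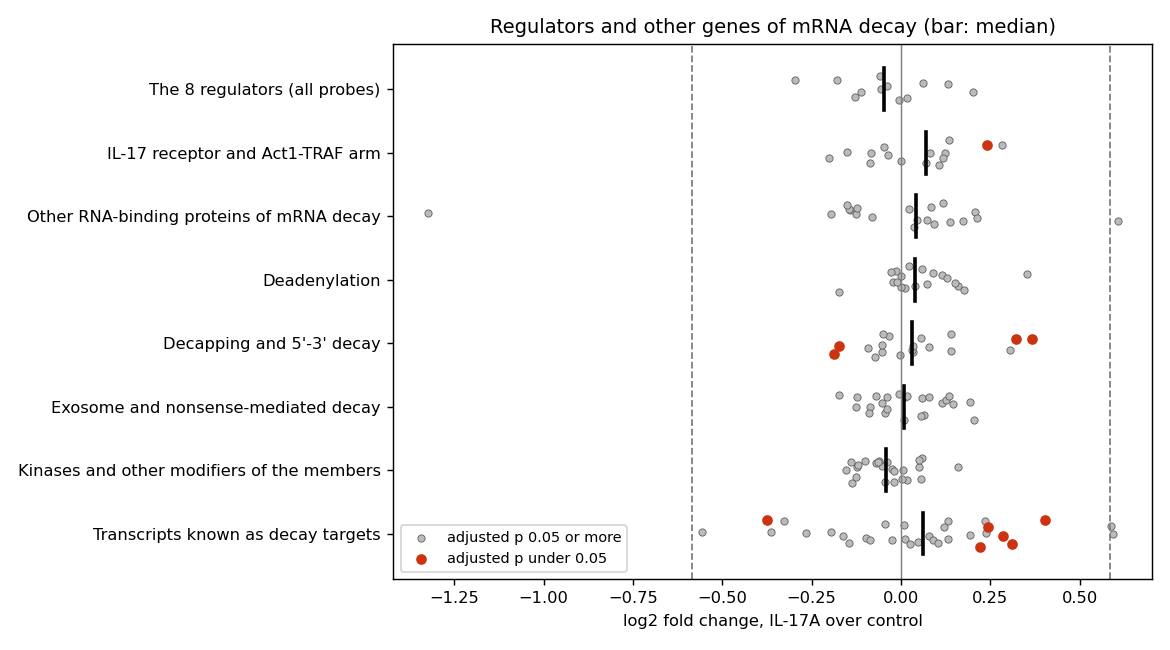
The log2 fold change (IL-17A over control, x axis) of the 12 regulator probes and of each tested gene of the 7 lists (rows) is plotted as 1 point, red where the adjusted p was under 0.05, with a black bar at the median of the row and dashed lines at 1.5-fold. The point at -1.32 is CAPRIN1, and no point of the regulators is red.

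The receptor and adaptor arm held 15 genes, all tested, of which 1 passed. TRAF3, an adaptor known to bind the IL-17 receptor, rose by 0.24 (SE 0.04, limma, adjusted p = 0.0373). The receptor chain IL17RA was at -0.05 (SE 0.05, limma, adjusted p = 0.525) at its brightest probe. Its other two probes gave 0.08 (adjusted p = 0.231) and -0.26 (adjusted p = 0.0427), so the probes of IL17RA disagreed. IL17RC, the second chain, was at -0.08 and TRAF3IP2, which encodes Act1, at 0.07, with adjusted p of 0.602 and 0.546 (limma), and a second TRAF3IP2 probe gave 0.26 (adjusted p = 0.123).

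Decapping and 5'-to-3' decay was the list of decay enzymes with calls, 4 of 19 genes (21.1%, beside 7.84% of all genes tested), 2 in each direction. XRN1, the exonuclease that degrades decapped mRNA, gave 9.97, 10.08 and 9.97 with IL-17A and 9.56, 9.64 and 9.73 in the controls. It rose by 0.37 (SE 0.06, limma, adjusted p = 0.0354), a fold of 1.29. DCP1A, a cofactor of the decapping enzyme, rose by 0.32 (SE 0.07, limma, adjusted p = 0.04995), and its second probe gave 0.12 (adjusted p = 0.205). EIF4ENIF1, which links translational repression to decapping, was at -0.19 (SE 0.04, limma, adjusted p = 0.0458), and its second, dimmer probe at -0.90 (SE 0.70, adjusted p = 0.416). LSM4, a subunit of the ring that binds shortened mRNA ends, was at -0.17 (SE 0.04, limma, adjusted p = 0.0466).

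None passed among the 19 tested genes of deadenylation, the 24 of the exosome and nonsense-mediated decay, the 24 kinases and other modifiers of the regulators, and the 20 tested RNA-binding proteins of related function. At an unadjusted p under 0.05 the counts were 4 of 19, 7 of 24, 3 of 24 and 9 of 20 genes (limma). The share over all tested probes was 31.3%, which counts probes and not genes at their brightest probe. The medians were 0.04, 0.01, -0.04 and 0.04. MALT1, the protease that cleaves Regnase-1 and the Roquins, was at -0.10 (SE 0.09, limma, adjusted p = 0.473).

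Among transcripts known as decay targets, 32 of 44 were tested and 6 (18.8%) passed, 5 higher and 1 lower. Of all 14746 genes tested, 1156 (7.84%) passed, 643 higher and 513 lower. The 32 log2 fold changes ran from -0.56 to 0.59, with a median of 0.06. At an unadjusted p under 0.05 there were 14 of the 32 (limma), beside 31.3% of all tested probes. BCL3, an NF-kB cofactor, gave 8.93, 8.99 and 9.01 with IL-17A and 8.61, 8.68 and 8.70 in the controls, and rose by 0.31 (SE 0.05, limma, adjusted p = 0.0328). IL23A, a cytokine subunit, rose by 0.28 (SE 0.04, limma, adjusted p = 0.0331), and REL, an NF-kB subunit that Regnase-1 and the Roquins are known to target, rose by 0.22 (SE 0.04, limma, adjusted p = 0.0365). JUN, a subunit of AP-1, and the growth factor VEGFA also passed, with 0.40 and 0.24, and a second VEGFA probe gave 0.48 (limma, adjusted p = 0.0309). ATF3, a stress-induced transcription factor, was at -0.37 (SE 0.06, limma, adjusted p = 0.0362) at its brightest probe, but at 0.44 (adjusted p = 0.0309) at another, so it has no settled direction.

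Some well-studied targets were IL6, TNF and NFKBIZ. IL6 was not well above background on any of the 6 arrays and was not tested, and TNF was on 3 of them (log2 fold change -0.27, SE 0.28, limma, adjusted p = 0.547). NFKBIZ, an inducible NF-kB cofactor and Regnase-1 target, was at 0.23 (SE 0.05, limma, adjusted p = 0.0517), with all IL-17A arrays above the controls. It passed in 3 of the alternatives, with the authors' series table (adjusted p = 0.0493), with detection required on all 6 arrays (0.0414) and with a variance trend (0.0395). In the 7 lists, 3 of 153 tested genes passed 1.5-fold with p under 0.05, near the 2.18% of all tested probes, and all 3 failed the adjustment. They were TNFRSF4 at a fold of 1.501, FOS at 1.51 and IGF2BP2 at 1.52, with adjusted p of 0.0540, 0.117 and 0.124 (limma), and were named after their values were seen. FOS was well above background on 4 arrays, with log2 signals of 1.93 to 3.01 over all 6, and IGF2BP2 was also dim, at 2.58 to 3.67.

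The brighter ARID5A probe, the regulator with the lowest p at its brightest probe, was set against 10049 other genes with a mean log2 signal of at least 6. Over the 6 arrays its pattern was most like that of ABR, CHAF1A and ACTR1A, with Pearson r of 0.993, 0.987 and 0.987, and 49 genes reached 0.95. These are descriptions over arrays that share scan sessions and normalization. None of the 3 passed adjusted p under 0.05 (limma, 0.473, 0.322 and 0.216).

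Each array held 43118 spots, none saturated. Fewer probes were detected on each IL-17A array, 23567 to 23717, than on any control, 23726 to 24077. IL-17A replicate 1, on which the session-blocked estimates rest, had 447 spots marked as population outliers, and the other 5 arrays had 297 to 320. The part of these differences in the results was not tested. All 9 B cell markers were well above background on all 6 arrays, and none passed adjusted p under 0.05, with 4 of 9 at an unadjusted p under 0.05 (limma), beside 31.3% of all tested probes. Their summed linear signal was 71090 to 72450 with IL-17A and 64890 to 69160 in the controls, without overlap, and their median log2 fold change was 0.17. Of the 3 markers of activated B or plasma cells, XBP1 and PRDM1 rose by 0.39 and 0.38 (limma, adjusted p = 0.0244 and 0.0328) and IRF4 was at -0.10. With the scan session as a block the values of XBP1 and PRDM1 were 0.39 and 0.40 and neither passed (limma, adjusted p = 0.0860 and 0.118). Without an array, both passed only when control replicate 3 was left out. Of 7 T and NK cell markers 1 passed, CD3E, lower by a log2 value of -0.46 (limma, adjusted p = 0.0400) near background, at 2.71 to 3.32, and not with the session as a block (adjusted p = 0.163) or with any array left out. The 7 log2 fold changes of this list ran from -0.51 to 0.51, with a median of 0.06. At an unadjusted p under 0.05 there were 3 of the 7 (limma), beside 31.3% of all tested probes. The summed linear signal of the 7 was 253 to 265 with IL-17A and 259 to 274 in the controls. The 3 endothelial markers summed to 242 to 251 and 272 to 316, with all 3 at an unadjusted p under 0.05 (limma) and none passing. Of the monocyte markers only CD14 was tested, at 31.6 to 37.3 over the 6 arrays, and CSF1R and FCGR3A were well above background on 0 arrays and CD68 on 2, and LYZ was not analysed here. Also on 0 arrays were the mesenchymal markers COL1A2 and LUM. The 2 tested mesenchymal markers summed to 14.5 to 23.2. The part of these markers in the results above was not tested. GAPDH and ACTB were at 0.01 and -0.10 (limma, adjusted p = 0.944 and 0.319).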

How the data were processed

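SU-DHL-2 cells with IL-17A (200 pg/ml, 72 h, n = 3) or without it (n = 3) were grouped by title, 1 array each. Per the labels, the array images were read with Agilent Feature Extraction 11.0.1.1. The authors' deposited scanner files hold linear-scale spot intensity, background-subtracted and not normalized between arrays, with flags of 0 or 1. Their deposited series table of log2 values, quantile normalized by the authors, served as an alternative. Control spots and spots marked as outliers were left out (49 probe values became missing), intensities below 1 were set to 1, log2 values of a probe's spots were averaged and arrays were quantile normalized. Probes detected (positive, significant and well above background) on at least 3 of 6 arrays were tested with two-sided limma 3.58.1 in R 4.3.3 and no covariates, and Benjamini-Hochberg adjustment covered the 23943 probes tested. The procedure was run on simulated data with independent noise on each array and no scan session, so that run cannot show how it behaves where arrays share a session. Gene names of GRCh38.p14 were matched to probes by RefSeq accession (25771 of 34127 probes). A gene of a list was represented by its brightest tested probe. An exact permutation test of 3 against 3 cannot give a p below 0.1, so none was used. The number of arrays limits the precision.

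All probes of the 8 regulators are named. From each list the up to 4 genes with the lowest p among those passing were named, with IL17RA, IL17RC, TRAF3IP2, IL6, TNF, NFKBIZ, GAPDH and ACTB. JUN, VEGFA, MALT1, CAPRIN1, TNFRSF4, FOS, IGF2BP2 and the marker IRF4 were picked once values were known. The regulators and lists were chosen with earlier results of these data known. The alternatives were 75th percentile scaling, no normalization, normexp (offset 50), the authors' series table, 2 other detection filters, raised dim signals, the methods' t-test, a variance trend, a replicate block, the scan session as a block, gene means over probes, and leaving out each array.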

Additional observations from a re-analysis of the deposited data

How the results depend on the processing

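No regulator probe passed adjusted p under 0.05 or 1.5-fold under any alternative except that with a variance trend 1 passed, the dimmer RC3H2 probe at 0.20. Of the 204 log2 fold changes of regulator probes under the alternatives, 194 kept their sign and their side of the threshold, 1 newly passed and 9 turned sign, all near 0 and none passing. The 2 other detection filters, raised dim signals, the variance trend, the methods' t-test and the replicate block repeat the reported fold changes. No sign could turn under these, so their part of the 194 does not measure stability of sign. The brighter RC3H1 probe turned to 0.0105 with 75th percentile scaling, 0.0364 without normalization, 0.0084 without IL-17A replicate 1 and 0.0080 without control replicate 3, in a range of -0.0142 to 0.0084 with an array left out. The brighter RC3H2 probe turned to -0.0113 without IL-17A replicate 1, -0.0041 without control replicate 2 and -0.0063 without control replicate 3, in a range of -0.0113 to 0.0630. The brighter ARID5A probe turned to 0.0046 with the scan session as a block, and ZFP36 to 0.0025 without IL-17A replicate 2, in a range of -0.1031 to 0.0025.

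The 3 regulator probes with an unadjusted p under 0.05 (a count added after seeing the data) became 5 with the methods' t-test, 1 with the scan session as a block and 1 to 4 with an array left out, the lowest without IL-17A replicate 2. The 1818 calls over all probes became 46 without normalization, 3852 with a variance trend, 48 with the scan session as a block and 2 to 975 with an array left out, and the 11 list calls became 0, 28, 1 and 0 to 6. The 522 probes past 1.5-fold became 16 with normexp, which starts from other spot signals and whose offset of 50 shrinks the fold changes of dim probes. With other filters they became 298 of 22247 tested when detected on all 6 arrays and 975 of 34127 without a filter. What else moved these counts was not tested. Replicate numbers did not pair the samples (correlations of deviations -0.087, -0.002 and -0.047), and the fit with a replicate block gave 4 calls over all probes, 0 in the lists and 0 regulator probes. Naming through a gene name column was not run, since no such column was used here.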
